A study of Arabidopsis thaliana with 12 samples.

Results

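The 9 genes described here were chosen by their level and not by their function. Each averaged at least 10 FPKM in ground control roots and under 0.5 FPKM in ground control leaves, and each was listed by the study as raised in spaceflight leaves. FPKM is the authors' estimate of transcript level, a number of fragments scaled to transcript length and library size. They are 9 of the 656 genes that the deposited tables list as changed in leaf or root. Of the 608 genes listed for leaf, 27 met both level thresholds, and these 9 were taken from them by name. None of the 9 is among the 65 genes listed for root. Because the leaf difference and the ground control levels selected the genes, both are given below as a description without a test, and only the difference between spaceflight and ground control roots was tested. The choice did not use that difference, though it did use the ground control root level.

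Seedlings of *Arabidopsis thaliana*, wild type of the ecotype Wassilewskija (WS) and 11 days old, were sequenced in 4 groups of 3 libraries: spaceflight leaf, ground control leaf, spaceflight root and ground control root. Spaceflight plants grew on plates in the Veggie plant growth hardware of the International Space Station, and ground control plants grew on 3 other plates in the same kind of hardware in a chamber that replayed the station's temperature, CO2 and light. All plants were fixed in RNAlater, and per the study's methods 3 plants of a plate were pooled and cut into leaf and root, with the hypocotyl between them set aside. A replicate is therefore 1 plate, and the leaf and root libraries were matched by replicate number. The sample titles, used here, and the organ characteristics of the labels name opposite organs for the ground control leaf and the spaceflight root samples. The light-harvesting genes LHCB1.2, LHCB2.2 and LHCB4.2, the 3 of 23 leaf markers that are listed, went with the titles, since their summed level was 6221 to 14152 FPKM in spaceflight leaves, 13678 to 17828 FPKM in ground control leaves, 144 to 344 FPKM in spaceflight roots and 102 to 111 FPKM in ground control roots. The labels' extraction text speaks of root tips and the study's methods of dissected roots, so which stretch of root was sequenced is unsettled.

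Leaves and roots share a genome but differ in which genes they transcribe, and many enzymes of defence and nutrient uptake are made mainly in the root. The coumarin scopoletin is one product of this kind. F6'H1 (AT3G13610, feruloyl-CoA 6'-hydroxylase) makes its precursor, a glucose is then added to give the storage form scopolin, and the root β-glucosidases BGLU21 (AT1G66270), BGLU22 and BGLU23 can release scopoletin again. Roots secrete coumarins when iron is short, and leaves can make scopoletin on attack by pathogens. OSM34 (AT4G11650) is an osmotin-like protein of the thaumatin family, to which the salicylic acid marker PR5 also belongs. The others are AT5G38020, a methyltransferase of the SABATH type; SAL4 (AT5G09290), a relative of the phosphatase SAL1; SRK2J (AT2G23030), a kinase of the SnRK2 family, which includes the abscisic acid-activated kinases; NUDT10 (AT4G25434), a Nudix hydrolase; RGXT3 (AT1G56550), a xylosyltransferase of rhamnogalacturonan II, a pectin of the cell wall; and AT3G20380, which carries a TRAF-like domain.

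The 250 bases before the annotated start of F6'H1, OSM34 and BGLU21 are shown because F6'H1 and OSM34 had the highest leaf folds and BGLU21 the highest root level of the 9. They are the Columbia sequence of RefSeq, build TAIR10.1, read in the direction of the gene, whereas the plants were WS. Capitals mark the W-box core TTGAC, the ABRE core ACGTG and the GCC box GCCGCC on either strand (GTCAA is TTGAC read on the other strand), the letters bound by WRKY, bZIP and ERF factors.
F6'H1, chr3:4449009-4449258, plus strand: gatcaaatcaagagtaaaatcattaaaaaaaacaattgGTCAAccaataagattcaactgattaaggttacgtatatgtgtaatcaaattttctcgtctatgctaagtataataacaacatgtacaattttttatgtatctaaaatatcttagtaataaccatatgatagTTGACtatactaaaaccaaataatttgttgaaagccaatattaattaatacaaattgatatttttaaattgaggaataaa
OSM34, chr4:7026225-7026474, minus strand: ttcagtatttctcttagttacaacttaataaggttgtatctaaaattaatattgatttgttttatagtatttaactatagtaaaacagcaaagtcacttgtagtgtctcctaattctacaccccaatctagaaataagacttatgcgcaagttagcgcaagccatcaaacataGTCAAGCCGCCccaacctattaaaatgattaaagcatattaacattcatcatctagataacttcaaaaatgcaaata
BGLU21, chr1:24703167-24703416, minus strand: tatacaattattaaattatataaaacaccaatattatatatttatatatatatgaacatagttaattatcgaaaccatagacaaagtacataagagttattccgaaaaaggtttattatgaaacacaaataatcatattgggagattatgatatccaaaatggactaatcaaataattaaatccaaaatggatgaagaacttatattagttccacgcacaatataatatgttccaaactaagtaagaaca
The W-box core was in the 250 bases of 6 of the 9 genes (F6'H1, OSM34, AT5G38020, RGXT3, NUDT10 and AT3G20380), and 44.9% of 27443 promoters of this length hold it. The ABRE core was before AT5G38020, SRK2J and NUDT10 and is in 22.9% of promoters. The GCC box was before OSM34 alone of the 9 and is in 1.87% of promoters. The G-box CACGTG, which contains the ABRE core, was before none of the 9 and is in 6.49% of promoters. A match in these letters is a description of the sequence and does not show that a factor binds there.

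F6'H1 had the largest leaf fold of the 9. It had 2.53, 2.15 and 7.32 FPKM in the leaves of spaceflight plates 1, 2 and 3, against 0.24, 0.06 and 0.12 FPKM in ground control leaves. Every spaceflight leaf library was above every ground control leaf library, and plate 3 was 2.89 times the next spaceflight plate. The means were 4.00 ± 2.88 FPKM in spaceflight leaves and 0.14 ± 0.0917 FPKM in ground control leaves (SD, n = 3 each), a ratio of 28.6, which was 16.7 without spaceflight leaf replicate 3 and 44.4 without ground control leaf replicate 1. In roots the gene had 118, 106 and 104 FPKM in spaceflight plates, against 114, 119 and 114 FPKM in ground control plates. The root groups overlapped, and the leaf of spaceflight plate 3 reached 7.06% of the root of that plate.

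BGLU21 had the highest root level of the 9 and a small leaf level. Its leaf values were 0.82, 1.02 and 2.12 FPKM in spaceflight plates, against 0.65, 0.34 and 0.42 FPKM in ground control plates, a ratio of means of 2.81 with groups that did not overlap. Its root values were 535, 521 and 751 FPKM in spaceflight plates, against 968, 832 and 762 FPKM in ground control plates. Here every spaceflight library was below every ground control library, the reverse of the leaf. The leaf mean in spaceflight was thus 0.219% of the root mean. BGLU21 was also the only one of 27 root marker genes listed in either table. Its transcript matches that of BGLU22 at 90.3% of 1975 aligned bases, so fragments of these copies may be divided between them by the authors' estimate.

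OSM34 stood apart from the other genes because 1 library carried its leaf level. Spaceflight leaves had 0.68, 1.01 and 18.92 FPKM, against 0.23, 0.29 and 0.88 FPKM in ground control leaves. Plate 3 was 18.7 times the next spaceflight plate, and the lowest spaceflight library lay below the highest ground control library, the overlap found for none of the other 8 genes. The ratio of means was 14.7, and it was 1.81 without spaceflight leaf replicate 3 and 26.4 without ground control leaf replicate 3. Roots had 478, 639.6 and 425 FPKM in spaceflight, against 383, 433 and 435 FPKM in ground control. These groups overlapped as well. PR5, the other gene of the osmotin and PR5 list, was a leaf gene here, with means of 38.7 FPKM in spaceflight leaves, 18.2 FPKM in ground control leaves, 0.147 FPKM in spaceflight roots and 0.497 FPKM in ground control roots.

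AT5G38020 was the third highest of the 9 in ground control roots. Its leaf values were 3.11, 1.13 and 0.83 FPKM in spaceflight, against 0.40, 0.25 and 0.65 FPKM in ground control. The groups did not overlap, but the highest spaceflight value was in plate 1 and not in plate 3, and without that replicate the ratio of 3.90 was 2.26. Its root had 348, 429 and 318 FPKM in spaceflight, against 318, 374 and 345 FPKM in ground control. It was the only one of 12 SABATH methyltransferase genes to be listed.

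SAL4 had the leaf mean closest to its root mean. Its leaf had 0.94, 1.47 and 2.48 FPKM in spaceflight, against 0.11, 0.31 and 0.22 FPKM in ground control, a ratio of 7.64, and its root had 14.0, 13.3 and 13.5 FPKM in spaceflight, against 11.2, 13.1 and 12.5 FPKM in ground control. The spaceflight leaf mean was therefore 11.99% of the spaceflight root mean, against 1.74% in ground control plants. In plate 1, however, RGXT3 at 14.1% and NUDT10 at 10.9% were above SAL4 at 6.73%, and without spaceflight plate 3 RGXT3 at 9.95% passed SAL4 at 8.83%. In neither organ did the groups overlap. SAL4 was the 1 gene listed of the 4 of its phosphatase family.

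SRK2J and NUDT10 were low in leaf and moderate in root. SRK2J had 0.97, 1.60 and 1.28 FPKM in spaceflight leaves, against 0.56, 0.22 and 0.53 FPKM in ground control leaves, and it was the only gene of the 9 highest in plate 2. In roots SRK2J had 35.9, 32.2 and 24.3 FPKM in spaceflight, against 22.2, 22.6 and 22.3 FPKM in ground control. It was the 1 gene listed of 10 SnRK2 kinases. NUDT10 had 1.60, 0.99 and 0.54 FPKM in spaceflight leaves, against 0.42, 0.20 and 0.39 FPKM in ground control leaves, with the highest value in plate 1. Its root had 14.7, 15.5 and 9.94 FPKM in spaceflight, against 9.47, 9.56 and 11.4 FPKM in ground control. The SRK2J groups did not overlap in either organ, whereas those of NUDT10 overlapped in root. Of 5 Nudix genes looked up, NUDT6 was listed as well, and it was higher in leaf than in root, with 12.5, 5.17, 4.00 and 3.13 FPKM on average in spaceflight leaves, ground control leaves, spaceflight roots and ground control roots.

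RGXT3 and AT3G20380 completed the set. RGXT3 had 2.22, 0.99 and 1.28 FPKM in spaceflight leaves, against 0.35, 0.25 and 0.33 FPKM in ground control leaves, a ratio of 4.83, and 15.8, 16.5 and 19.0 FPKM in spaceflight roots, against 21.5, 15.9 and 18.1 FPKM in ground control roots. Its leaf groups were separate and its root groups overlapped, and it was the 1 gene listed of 4 in its family. AT3G20380 had 0.80, 1.2 and 1.58 FPKM in spaceflight leaves, against 0.51, 0.41 and 0.42 FPKM in ground control leaves. Its ratio of 2.67 was the smallest of the 9. Its root had 163, 169.5 and 146 FPKM in spaceflight, against 147, 149 and 151 FPKM in ground control, which overlapped.

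**Figure D1:**
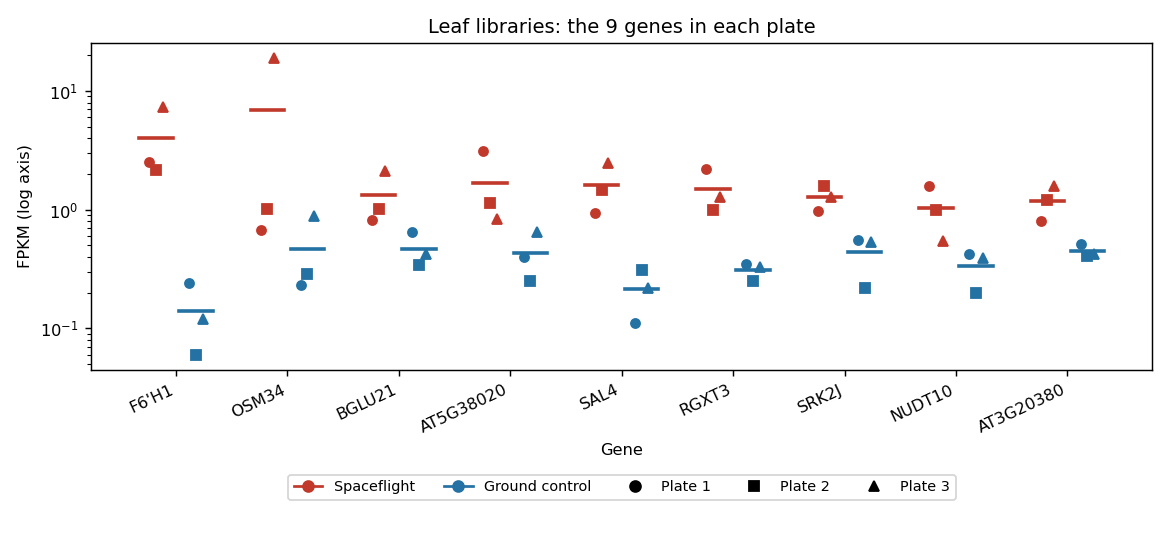
Leaf level of the 9 genes in each plate, in FPKM on a log axis; points are single libraries, their shape gives the plate, and bars are group means of 3 libraries. The spaceflight points lie above all ground control points for every gene but OSM34, whose spaceflight plate 3 stood at 18.92 FPKM.

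Across the 9 genes the ratio of leaf means ran between 2.67 and 28.6, with a median of 3.90. The leaf groups did not overlap, with spaceflight higher, for 8 of the 9. The same held for 16 of the 18 other leaf-listed genes within both level thresholds, so the 9 do not stand out in this. It held for 68.1% of all 608 genes listed for leaf, in either direction, a share the listing itself produces. The listed genes were mostly higher in spaceflight leaves, and the library medians over them differed by 0.84 on the log2 scale. After each library was scaled to its median over these listed genes, the ratios were 1.45 to 14.4, with a median of 2.33. Genes are in the tables because they changed, so the scaling takes out part of that change and is no check of library size. On that scale only F6'H1, SAL4 and RGXT3 kept separate leaf groups, 3 of the 9, and the other 6 overlapped. The share with spaceflight higher was 37% of all 608 genes listed for leaf, again in either direction. Of the light-harvesting genes, 3 were listed for root and 0 for leaf. In leaf, only LHCB2.2 had separate groups, with 1291 ± 631 FPKM in spaceflight and 2387 ± 170 FPKM in ground control. LHCB1.2 overlapped, with 7935 ± 3038 FPKM in spaceflight and 11306 ± 1791 FPKM in ground control. LHCB4.2 overlapped too, with 2059 ± 745 FPKM in spaceflight and 2162 ± 133 FPKM in ground control (SD, n = 3 each). The part of light-harvesting genes in the leaf values of the 9 genes was not tested. The spread between plates was wide in spaceflight leaves, where the SD was 24.5% to 152% of the mean, and it was 12.3% to 77.0% in ground control leaves, 2.44% to 22.4% in spaceflight roots and 0.967% to 15.2% in ground control roots. The plates did not order the genes alike, since plate 3 was the highest spaceflight leaf for 5 genes (F6'H1, OSM34, BGLU21, SAL4 and AT3G20380), plate 1 for 3 (AT5G38020, RGXT3 and NUDT10) and plate 2 for SRK2J.

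The ground control leaf values rest on few fragments. The spacing of low FPKM values gave an estimate of 24800000 to 31800000 fragments per spaceflight leaf library and 27700000 to 29160000 per ground control leaf library. On that scale the 9 genes had 10 to 361 fragments per library in spaceflight leaves and 2 to 30 in ground control leaves. Of the ground control estimates, 25 of 27 fell within 0.25 of a whole number. Most of them were among the low values that set the depth, so this closeness is no separate check of it. Of the spaceflight estimates 13 of 27 fell that close, or 48.1%, no more than the 50% that evenly spread values give. The spaceflight figures are therefore rough and carry no interval. F6'H1 had an estimated 8, 2 and 4 fragments in ground control leaves. The sum of 14 has an exact 95% Poisson interval of 7.65 to 23.5, which covers counting error only and takes the estimated depth as given.

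All 9 genes were still higher in root than in leaf in spaceflight. The root mean was 8.34 (SAL4) to 456 (BGLU21) times the leaf mean in spaceflight plants, against 30.2 (NUDT10) to 1817 (BGLU21) times in ground control plants. The choice of genes fixed the second range. Order by root level in spaceflight was BGLU21 with 602 ± 129 FPKM, OSM34 with 514 ± 112 FPKM, AT5G38020 with 365 ± 57.5 FPKM, AT3G20380 with 159 ± 12.3 FPKM, F6'H1 with 109 ± 7.74 FPKM, SRK2J with 30.8 ± 5.93 FPKM, RGXT3 with 17.1 ± 1.71 FPKM, SAL4 with 13.6 ± 0.332 FPKM and NUDT10 with 13.4 ± 2.99 FPKM (SD, n = 3). BGLU21 and OSM34 lay within their spread of each other, as did SAL4 and NUDT10. The order in spaceflight leaves was different, with OSM34 at 6.87 ± 10.4 FPKM, F6'H1 at 4.00 ± 2.88 FPKM, and the other 7 between 1.04 ± 0.532 FPKM (NUDT10) and 1.69 ± 1.24 FPKM (AT5G38020), none of which stood clear of its neighbours.

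**Figure D2:**
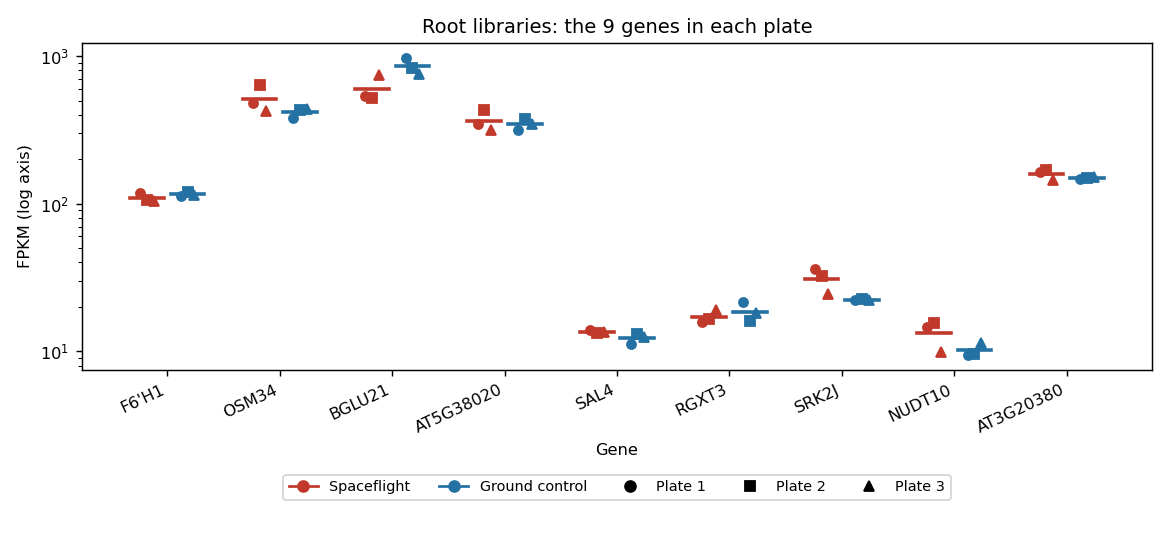
Root level of the 9 genes in each plate, in FPKM on a log axis; points are single libraries, their shape gives the plate, and bars are group means of 3 libraries. Spaceflight and ground control points lie close together, and BGLU21 is the 1 gene whose spaceflight libraries are all below the ground control ones.

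The leaf level was also expressed as a percentage of the root level. The leaf gain, the spaceflight leaf mean minus the ground control leaf mean, was 10.4% of the spaceflight root mean for SAL4, 6.94% for RGXT3, 5.29% for NUDT10, 3.53% for F6'H1, 2.75% for SRK2J and 1.24% for OSM34. It was 0.468% for AT3G20380, 0.345% for AT5G38020 and 0.141% for BGLU21, so that the highest was 73.9 times the lowest. Without spaceflight plate 3, left out in both organs after seeing the data, it was 0.0677% for OSM34, whose gain was then 0.378 FPKM, and 1.96% for F6'H1, and the range was 0.0677% to 8.03% (RGXT3). The 4 genes with the highest root level had the 4 smallest percentages, while the gains themselves lay between 0.707 FPKM (NUDT10) and 1.42 FPKM (SAL4) for 7 of the 9 and were 3.86 FPKM for F6'H1 and 6.40 FPKM for OSM34. The choice of genes shapes this spread, because genes of very different root level had to pass the same leaf thresholds. The spread was therefore not used as a test of where the leaf transcripts came from. Whether root RNA in the leaf samples contributed to the gain was not tested.

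Within single spaceflight plates the leaf level was 0.142% to 14.1% of the root level in plate 1, 0.158% to 11.0% in plate 2 and 0.261% to 18.4% in plate 3, with the highest 99.0, 69.9 and 70.4 times the lowest. The means gave 0.219% (BGLU21) to 11.99% (SAL4) in spaceflight plants, the highest 54.7 times the lowest, and 0.0550% (BGLU21) to 3.32% (NUDT10) in ground control plants, the highest 60.2 times the lowest. The percentages varied about as widely between genes on the ground as in spaceflight. As a ratio F6'H1 differed most between the groups, with 3.66% in spaceflight and 0.121% in ground control, whereas in percentage points SAL4, RGXT3 and NUDT10 differed more. BGLU21 was lowest in both groups. How each transcript is distributed along the root and whether part of the upper root stayed on a leaf sample were not measured. In bulk samples, more cells of a type and more RNA per cell cannot be told apart.

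**Figure D3:**
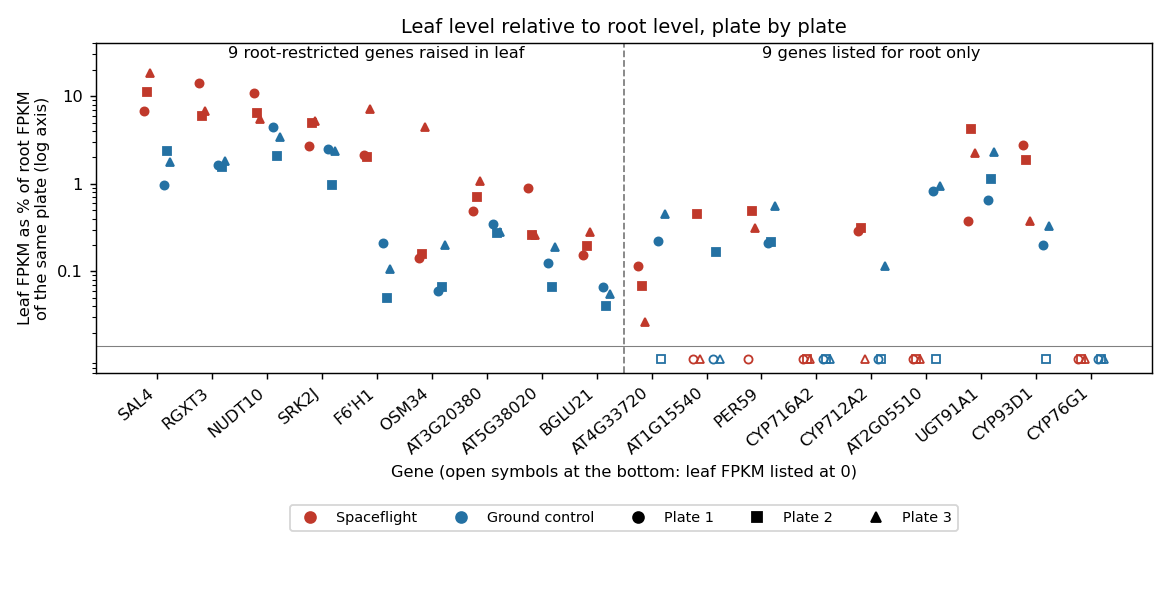
Leaf level as a percentage of the root level of the same plate, on a log axis, for the 9 genes at left and for 9 root genes listed for root only at right; colour gives spaceflight or ground control, shape the plate, and open symbols at the bottom a leaf value listed at 0. The left-hand genes span 0.142% to 18.4% in spaceflight plates.

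A further 9 genes met the same level thresholds but were listed for root only, so each had passed the study's thresholds for a root change. In spaceflight roots 6 of them were lower and 3 higher than in ground control, without overlap. The median of their spaceflight root means was 8.82 FPKM, against 109 FPKM for the 9 genes raised in leaf, so they are not matched in root level. The spaceflight leaf means of these comparison genes were 0.18 FPKM at most. Their leaf gain was -0.10 to 0.0933 FPKM, with a median of 0. Not being listed for leaf, they could show no leaf change past the study's thresholds, so this is a description too. AT4G33720, a CAP and pathogenesis-related family protein, was the most abundant of them in root. It had 0.26, 0.20 and 0.08 FPKM in spaceflight leaves, against 0.14, 0 and 0.42 FPKM in ground control leaves, although its roots had 225, 290 and 301 FPKM in spaceflight, against 63.3, 98.0 and 92.3 FPKM in ground control. Its leaf level was 0.116%, 0.0690% and 0.0265% of the root level in spaceflight plates 1, 2 and 3, and it was lowest in plate 3, the plate highest for 5 of the 9 genes. Of the other 3 with the highest ground control root level, AT1G15540 had 0, 0.05 and 0 FPKM in spaceflight leaves and the same 3 values in ground control leaves. PER59, a class III peroxidase, had 0, 0.28 and 0.26 FPKM in spaceflight leaves, against 0.03, 0.07 and 0.16 FPKM in ground control leaves. The cytochrome P450 gene CYP716A2 was listed at 0 in all 6 leaf libraries, with root means of 8.43 FPKM in spaceflight and 19.0 FPKM in ground control.

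The ground control plates gave other percentages for AT4G33720, 0.221%, 0% and 0.455% in plates 1, 2 and 3, beside a root mean that was 3.22 times as high in spaceflight as in ground control. Multiplied by the percentage of AT4G33720 in the same plate, the root level of the 9 genes corresponds to at most 0.0161 FPKM (SAL4) to 0.619 FPKM (BGLU21) in spaceflight leaves. All measured spaceflight leaf values were above that level, with BGLU21 and OSM34 nearest to it, at 1.33 to 10.6 times for BGLU21 and 1.23 to 168 times for OSM34, and with NUDT10 at 92.8 to 205 times. In ground control plates 1 and 3 the same scaling put BGLU21 at 0.304 and 0.121 times, OSM34 at 0.271 and 0.444 times, AT5G38020 at 0.569 and 0.414 times and F6'H1 at 0.956 and 0.232 times that level, all below it. Already above it on the ground were NUDT10 at 20.0 and 7.50 times, SRK2J at 11.4 and 5.22 times, RGXT3 at 7.37 and 4.02 times and SAL4 at 4.44 and 3.86 times. AT3G20380 was above it in plate 1 at 1.57 times and below it in plate 3 at 0.612 times. The result thus depended on the plate and the gene used for scaling. AT4G33720 had 0.26, 0.20 and 0.08 FPKM in spaceflight leaves, low values given to 2 decimals. The multiples are therefore rough, most of all in plate 3, and the scaling did not test whether root RNA was in the leaf samples. UGT91A1 and CYP93D1, named here after their values were seen, had the highest percentages of the comparison genes. UGT91A1 reached 4.26% in spaceflight plate 2, above the 2.03% of F6'H1, and CYP93D1 reached 2.80% in spaceflight plate 1, above the 2.14% of F6'H1 and the 2.70% of SRK2J. SAL4, RGXT3 and NUDT10 were above all the comparison genes in each spaceflight plate. On the ground NUDT10 was above them all in each plate too, and SAL4 and RGXT3 were in plates 1 and 2. In ground control plate 3 UGT91A1 at 2.29% was above SAL4 at 1.76% and RGXT3 at 1.83%.

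The choice of genes did not use the root difference between spaceflight and ground control, but it required at least 10 FPKM in the ground control roots, which are 1 arm of that comparison, and NUDT10 and SAL4 lay close to this limit. The limma fit took log2(FPKM + 1) of the 6 root libraries over 656 listed genes. A call was a difference of 2-fold or more with a Benjamini-Hochberg adjusted p below 0.05. Of the 9 genes 0 were called, against 3.51% of the listed genes (10 higher and 13 lower in spaceflight). The study had listed none of the 9 for root from these same libraries at like thresholds, so 0 calls was likely beforehand. The 3.51% includes genes listed because they changed in root, and the fit to leaf-listed genes only called 1 of 608. Of the 9, 2 had an unadjusted p under 0.05, against 30.8% of listed genes, and no count-based tool was run because the files hold FPKM. BGLU21 averaged 602 ± 129 FPKM in spaceflight roots and 854 ± 105 FPKM in ground control roots (log2 difference -0.52, SE 0.18, limma adjusted p = 0.103). SRK2J averaged 30.8 ± 5.93 FPKM in spaceflight roots and 22.4 ± 0.216 FPKM in ground control roots (log2 difference 0.43, SE 0.15, limma adjusted p = 0.113). The root groups did not overlap for SAL4 and SRK2J with spaceflight higher (background 22%) and for BGLU21 with spaceflight lower (background 12.5%).

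For the other 7 the log2 difference in root lay between -0.10 (RGXT3) and 0.35 (NUDT10), with limma adjusted p between 0.253 (NUDT10) and 0.786 (AT5G38020). It was -0.08 with an SE of 0.09 for F6'H1 (limma adjusted p = 0.613) and 0.28 with an SE of 0.17 for OSM34 (limma adjusted p = 0.311), the genes with the largest leaf ratios. The ratio of root means was 0.705 to 1.38 over the 9 genes, while that of leaf means was 2.67 or more. The difference between the organs was not tested, because the leaf side was selected. Without spaceflight root replicate 3, SRK2J had a log2 difference of 0.58 (limma adjusted p = 0.0245), BGLU21 one of -0.68 (limma adjusted p = 0.0293) and NUDT10 one of 0.53 (limma adjusted p = 0.0385), and none of them reached 2-fold. In that fit 240 of the 656 listed genes had an unadjusted limma p under 0.05, as did 4 of the 9. Over the alternatives the limma adjusted p reached 0.273 for SRK2J, 0.292 for BGLU21 and 0.523 for NUDT10. The 3 listed light-harvesting genes were at 144 to 344 FPKM in sum in spaceflight roots, against 102 to 111 FPKM in ground control roots. All 3 are in the tables because the study listed them as changed in root, so a root difference was required of them. The other leaf markers are not listed and their root levels are unknown. The part of light-harvesting genes in these root values was not tested.

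The thresholds cut through a continuum. NUDT10 with 10.2 FPKM and SAL4 with 12.3 FPKM in ground control roots were just inside the root threshold, and AT1G14780 with 8.99 FPKM and NAC003 with 8.06 FPKM just outside. BGLU21 with 0.470 FPKM and OSM34 with 0.467 FPKM in ground control leaves were just inside the leaf threshold, and AT4G21903 with 0.520 FPKM and SDR3B with 0.523 FPKM just outside. The 18 other leaf genes within both thresholds had spaceflight leaf means of 0.399% to 41.0% of the root means, a median of 7.10%, against 0.219% to 11.99% and a median of 3.66% for the 9 genes. In 11 of those 18, spaceflight leaf plate 3 was the highest. NIT2, 1 of the 18 and named here after its values were seen, rested on that plate much as OSM34 did. Its plate 3 was 12.1 times the next spaceflight leaf, and its leaf ratio of 14.5 was 2.96 without plate 3. By Pearson correlation of log2(FPKM + 1) with the mean standardised profile of the 9 genes over the 12 libraries, the listed genes most alike were AT4G22212 (r = 0.998), AT4G21903 (r = 0.998), AT1G13830 (r = 0.998), AT2G03200 (r = 0.997) and the glycolate oxidase gene GLO5 (r = 0.997). All of these genes are higher in root than in leaf, so the value describes that shared gap as well as any likeness within an organ.

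Few relatives of the 9 genes were listed. Of 20 genes of scopoletin and scopolin synthesis, hydrolysis and export, F6'H1 and BGLU21 were the 2 listed, both for leaf, and of 17 genes of iron uptake and the iron deficiency response 0 were listed. A gene that is not listed was not past the study's thresholds or is not analysed here, and its level is not known from these tables. By position in TAIR10.1 the 9 genes are dispersed. F6'H1 (chromosome 3, 4449259 to 4450811, plus strand, 2 exons) and AT3G20380 (chromosome 3, 7108097 to 7109970, plus strand, 6 exons) share a chromosome, as do OSM34 (chromosome 4, 7024852 to 7026224, minus strand, 2 exons) and NUDT10 (chromosome 4, 13003568 to 13005935, minus strand, 6 exons). BGLU21 lies on chromosome 1 (24699868 to 24703166, minus strand, 13 exons) with RGXT3 (21185592 to 21188369, minus strand, 4 exons), and SAL4 (2882302 to 2884229, plus strand, 8 exons) on chromosome 5 with AT5G38020 (15165642 to 15167864, minus strand, 3 exons). SRK2J is on chromosome 2 (9803492 to 9806731, minus strand, 9 exons). F6'H1, SAL4 and AT3G20380 each overlap a protein-coding gene on the opposite strand (AT3G13620, AT5G09300 and AT3G20390), and since the labels and the study's methods name different library kits, it is unsettled whether reads of the partners were told apart.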

How the data were processed

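RNA-seq was analysed in 12 libraries, 3 plates in each of 4 groups. Per the methods, reads were inspected (FastQC), trimmed (Trimmomatic), aligned to TAIR10 (STAR) and quantified (RSEM) by the authors; versions of these tools: not given in the sources used here. Deposited tables, 1 per organ, give FPKM per library for genes past the authors' edgeR thresholds only. The files do not name this unit. The ratio of the deposited mean CPM to mean FPKM followed gene length (Spearman's rho 0.792 in spaceflight and 0.793 in ground control leaves over 606 genes), as FPKM does. The deposited fold changes, p-values and FDR were not used. No counts were analysed here, so root depth is unknown; leaf depth was estimated from the spacing of low values, a step added after seeing the data.

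Root groups were compared with limma 3.58.1 (R 4.3.3) on log2(FPKM + 1), pseudocount 1, over all 656 listed genes, with no filter and Benjamini-Hochberg adjustment. A fold on that scale understates changes of low genes. The limma step and the depth step were tested on simulated data. Titles gave the groups. Alternatives were another pseudocount (0.1), a filter (mean of at least 1 FPKM), centred libraries, a replicate block, leaf-listed genes only, trended robust variance and leaving out each replicate. Promoters were the 250 bases upstream of RefSeq genes of TAIR10.1, and similar transcripts were found with BLAST 2.17.0. Other steps used Python 3.11.15, numpy 2.4.6, pandas 2.3.3, scipy 1.17.1 and matplotlib 3.10.9.

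The 9 genes, the gene lists and the named-gene rule were chosen with earlier results of these data known. The rule names all 9 genes, the 2 genes on each side of a threshold, the 4 comparison genes highest in ground control roots, the 5 genes most alike and up to 4 listed genes of each list. Replicates are plates grown together, so p-values measure the spread between plates of 1 flight and 1 ground run.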

Additional observations from a re-analysis of the deposited data

Results flagged for a closer look

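BGLU21, the root β-glucosidase, was higher in spaceflight than in ground control in leaf and lower in root, with deposited FPKM that did not overlap in either organ. Its ratio of spaceflight to ground control means was 2.81 in leaf, with 0.82 to 2.12 FPKM in spaceflight and 0.34 to 0.65 FPKM in ground control, and 0.705 in root, with 521 to 751 FPKM in spaceflight and 762 to 968 FPKM in ground control. After each library was scaled to its median over the listed genes the leaf ratio was 1.47 and the leaf groups overlapped. The listed genes were mostly higher in spaceflight leaves, so this scaling lowers the ratio and is no separate check. The difference between the organs was not tested, because the gene was selected for its leaf difference, and the root difference alone did not pass the limma test (adjusted p = 0.103, and 0.0293 to 0.292 over the alternatives).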

How the results depend on the processing

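The root test called 0 of the 9 genes under all 12 alternatives, including 0 to 0 when each replicate was left out. The absence of the 9 from the study's root list made this outcome likely. Calls over all listed genes numbered 23 in the fit as reported, 1 among leaf-listed genes only and 0 to 44 when a replicate was left out, the extremes being 0 without ground control root replicate 1 or 3 and 44 without spaceflight root replicate 3. With the replicate number as a block, 0 of the 9 genes and 21 listed genes were called, against 23 listed genes without it. Same-numbered spaceflight and ground control plates correlated at 0.0405, 0.0754 and 0.131 in their deviations. For spaceflight replicates 2 and 3 this was the best match, whereas replicate 1 correlated better with ground control replicate 2 (0.0758). These correlations are small and do not settle whether the numbers pair plates, which were separate for spaceflight and ground control. The sign of the root difference held in 12 of 12 alternatives for 7 genes and in 11 of 12 for AT5G38020 (-0.05 without spaceflight root replicate 2) and RGXT3 (0.01 without ground control root replicate 1).

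The median leaf ratio of 3.90 was 2.86 with group medians, 2.33 with scaled libraries, 3.22 to 4.99 when a replicate was left out, and 3.71 from the roughly estimated fragments, an alternative chosen after seeing the data. The median leaf gain of 2.75% of the root level was 1.96% to 3.20% when a replicate was left out (lowest with spaceflight plate 3 left out of both organs, chosen after seeing the data) and 3.34% over ground control roots. With looser thresholds (root 5, leaf 1 FPKM), 13 comparison genes had leaf gains of -0.203 to 0.23 FPKM and a median of 0. The tables hold only listed genes, so whole-library scaling could not be checked, and FPKM with 2 decimals limits values of a few fragments.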
